A study of Mus musculus with 32 samples.

Results

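The haematopoietic growth factor receptors described here are 8 genes chosen by symbol: Csf2ra, Csf2rb, Csf2rb2, Il3ra, Csf1r, Csf3r, Flt3 and Kit. Each was 1 row in every one of 4 count tables, which held 23284 gene rows for leukaemia, 23951 for bone marrow, and 22803 and 23955 for fetal liver. The tables cover 32 mouse libraries in 10 groups. Leukaemia cells carrying the MLL-AF9 fusion were sorted from moribund mice in 4 groups of 3 libraries. These were cells with wild-type Prdm16 and empty vector (WT+EV), PRDM16-KO cells with the same vector (KO+EV), and cells of that genotype overexpressing 1 of 2 forms of this transcriptional regulator, f-PRDM16 in the group KO+f and s-PRDM16 in the group KO+s. All 4 groups carry MLL-AF9, and the vector, its promoter and the origin of each leukaemia are not given in the sources used here. Haematopoietic stem cells (HSCs), sorted as Lin-cKit+Sca1+CD48-, came from adult bone marrow labelled wild type or PRDM16-KO (4 libraries each). Fetal liver HSCs came from wild type and PRDM16-KO (3 each, the total knockout). A second fetal set held 3 wild-type libraries and 3 libraries with s-PRDM16 only, the f-PRDM16 knockout. Library labels of the bone marrow and total-knockout fetal sets carry the tag VAV, and those of the f-PRDM16 set a tag giving a length in base pairs. What these tags stand for, including any Cre or allele, is not explained in the sources used here. The allele behind the knockout in leukaemia and the ages of the mice are not given there. The design text calls the replicates independent without naming animals, so each p-value reflects only how far these libraries differ among themselves, which may be technical.

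These receptors carry the signals that keep blood progenitors alive and steer them along the myeloid lineages. Csf2ra encodes the alpha chain that binds GM-CSF and Il3ra the alpha chain that binds IL-3. Both alpha chains signal through the shared beta chain encoded by Csf2rb, and mice have a close copy, Csf2rb2, whose product serves IL-3 alone. Csf3r encodes the G-CSF receptor, which drives the neutrophil lineage and signals through JAK and STAT proteins. Csf1r, Flt3 and Kit are receptor tyrosine kinases. Csf1r answers CSF1 and IL-34 in monocytes and macrophages, Flt3 answers FLT3 ligand in early progenitors and dendritic cell precursors, and Kit answers stem cell factor in stem and progenitor cells and mast cells. FLT3 is also one of the genes most often mutated in human acute myeloid leukaemia.

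The bases just before the transcription start of 3 of these genes are printed because their RNA levels separated KO+s from KO+EV leukaemia cells. Each run is the 250 bases upstream of the RefSeq start in GRCm38.p6, read 5′ to 3′ along the gene. The counts were made on another build, mm9, and positions in that build are not used. Capitals mark 3 short patterns searched on both strands: GAGGAA, the core recognised by the myeloid factor PU.1, TTNNGNAA, a loose C/EBP pattern, and TGTGGT, the RUNX core. The Csf2ra run lies at chr19:61228419-61228668 on the minus strand, the Csf3r run at chr4:126024409-126024658 on the plus strand and the Csf2rb2 run at chr15:78305722-78305971 on the minus strand.
Csf2ra: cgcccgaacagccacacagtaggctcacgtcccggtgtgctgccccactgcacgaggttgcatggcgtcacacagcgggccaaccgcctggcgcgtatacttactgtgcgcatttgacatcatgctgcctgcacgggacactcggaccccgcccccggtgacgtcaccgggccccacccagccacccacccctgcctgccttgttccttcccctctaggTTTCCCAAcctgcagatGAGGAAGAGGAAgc
Csf3r: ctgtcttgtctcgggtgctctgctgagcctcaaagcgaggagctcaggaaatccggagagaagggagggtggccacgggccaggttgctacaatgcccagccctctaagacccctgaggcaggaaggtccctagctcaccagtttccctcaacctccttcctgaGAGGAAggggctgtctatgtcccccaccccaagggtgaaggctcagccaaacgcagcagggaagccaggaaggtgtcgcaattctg
Csf2rb2: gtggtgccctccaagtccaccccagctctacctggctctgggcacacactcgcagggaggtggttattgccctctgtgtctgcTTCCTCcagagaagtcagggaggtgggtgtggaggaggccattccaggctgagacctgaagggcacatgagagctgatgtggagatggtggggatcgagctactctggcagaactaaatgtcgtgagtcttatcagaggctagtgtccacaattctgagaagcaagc
Csf2ra held 2 adjoining PU.1 cores, at -14 and -8 from the start, and a C/EBP match at -31 on the other strand. Csf3r held 1 PU.1 core at -86, and Csf2rb2 held 1 at -167 on the other strand. No RUNX core was found in these 3 windows, and no 2 of the patterns overlapped in them. Among 32851 RefSeq promoter windows of this length, 23.3% held GAGGAA, 36.8% TTNNGNAA and 14% TGTGGT, so single matches are common. A match is a run of letters and does not show binding. Of the 8 receptors, 6 were matched by symbol in the RefSeq promoter table, all but Csf1r and Csf2rb. The windows of Kit, Il3ra and Flt3, whose RNA was not called in KO+s against KO+EV, were searched too. Kit held 1 PU.1 core at -223, Il3ra held 1 C/EBP match at -134 on the other strand, and Flt3 held no match. A PU.1 core was thus not confined to called receptors.

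Depth ran from 16.4 to 23.8 M counts in leukaemia and from 22.5 to 45.0 M in HSCs. Prdm16, the targeted gene, had 9 to 17 counts in the WT+EV libraries and 0 to 2 in KO+EV. As CPM (the count divided by the library's total in M), it was 242 to 335 with f-PRDM16 added back and 179 to 295 with s-PRDM16, against 0.429 to 1.04 in WT+EV, so both add-backs are far above the wild-type level. In fetal liver it was 10.8 to 24.6 CPM in the total knockout against 25.5 to 39.8 CPM in its wild type, and 6.29 to 9.81 against 13.2 to 34.7 CPM for the f-PRDM16 knockout. In bone marrow it was 13.4 to 41.3 CPM in libraries labelled KO and 10.5 to 53.4 CPM in wild type, so gene-level RNA did not separate the labels. A deleted exon can leave the count of a whole gene unchanged, so this does not check the deletion. All 11 HSC markers averaged over 1 CPM in each HSC group other than the f-PRDM16 knockout, where 10 did. In leukaemia groups 1 to 3 of them did, and 6 granulocyte-monocyte progenitor markers summed to at least 7210.2 CPM in every library. That sum was at most 1602 CPM in bone marrow. It reached 7883 CPM in the total-knockout set and was 3028 to 32622 CPM in the f-PRDM16 set. It therefore does not set leukaemia apart from fetal liver HSCs. KO+EV replicate 3 stood apart, with a summed granulocyte-monocyte progenitor marker level of 54022 CPM against 12798 and 12827 in the other KO+EV libraries.

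All 8 receptors passed the filter on low counts in every table. Levels are given as CPM, and between genes as CPM per kilobase of transcript (GENCODE vM21 lengths), since longer transcripts collect more reads. Csf2ra had the highest level per kilobase in all 4 leukaemia groups, at 252 ± 47.1 CPM per kb in WT+EV (SD, 3 libraries), 193 ± 70.6 in KO+EV, 251 ± 36.9 in KO+f and 376 ± 72.8 in KO+s. It stood clear of the receptor ranked second in each of them. That second receptor differed by group: Csf2rb in WT+EV (81.6 ± 2.56 CPM per kb) and KO+EV (92.5 ± 20.7), Flt3 in KO+f (73.6 ± 39.7) and Csf3r in KO+s (134 ± 17.9). Flt3 in KO+f overlapped Kit, which came next at 68.2 ± 22.6 CPM per kb.

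In HSCs Kit ranked first in all 6 groups, from 56.2 ± 21.7 CPM per kb in the total-knockout fetal libraries to 262 ± 35.2 in bone marrow labelled KO. The rank is one of means: Kit overlapped the second receptor in both total-knockout-set groups and in the f-PRDM16 knockout. Kit protein was used to sort these cells, so its rank and its level between HSC groups are no finding. Csf1r and Il3ra shared the bottom of the order in total-knockout fetal HSCs, at 3.79 ± 0.0862 and 3.42 ± 0.384 CPM per kb. Csf1r was lowest in bone marrow, at 0.500 ± 0.307 CPM per kb in wild type and 0.744 ± 0.555 in libraries labelled KO.

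**Figure D1:**
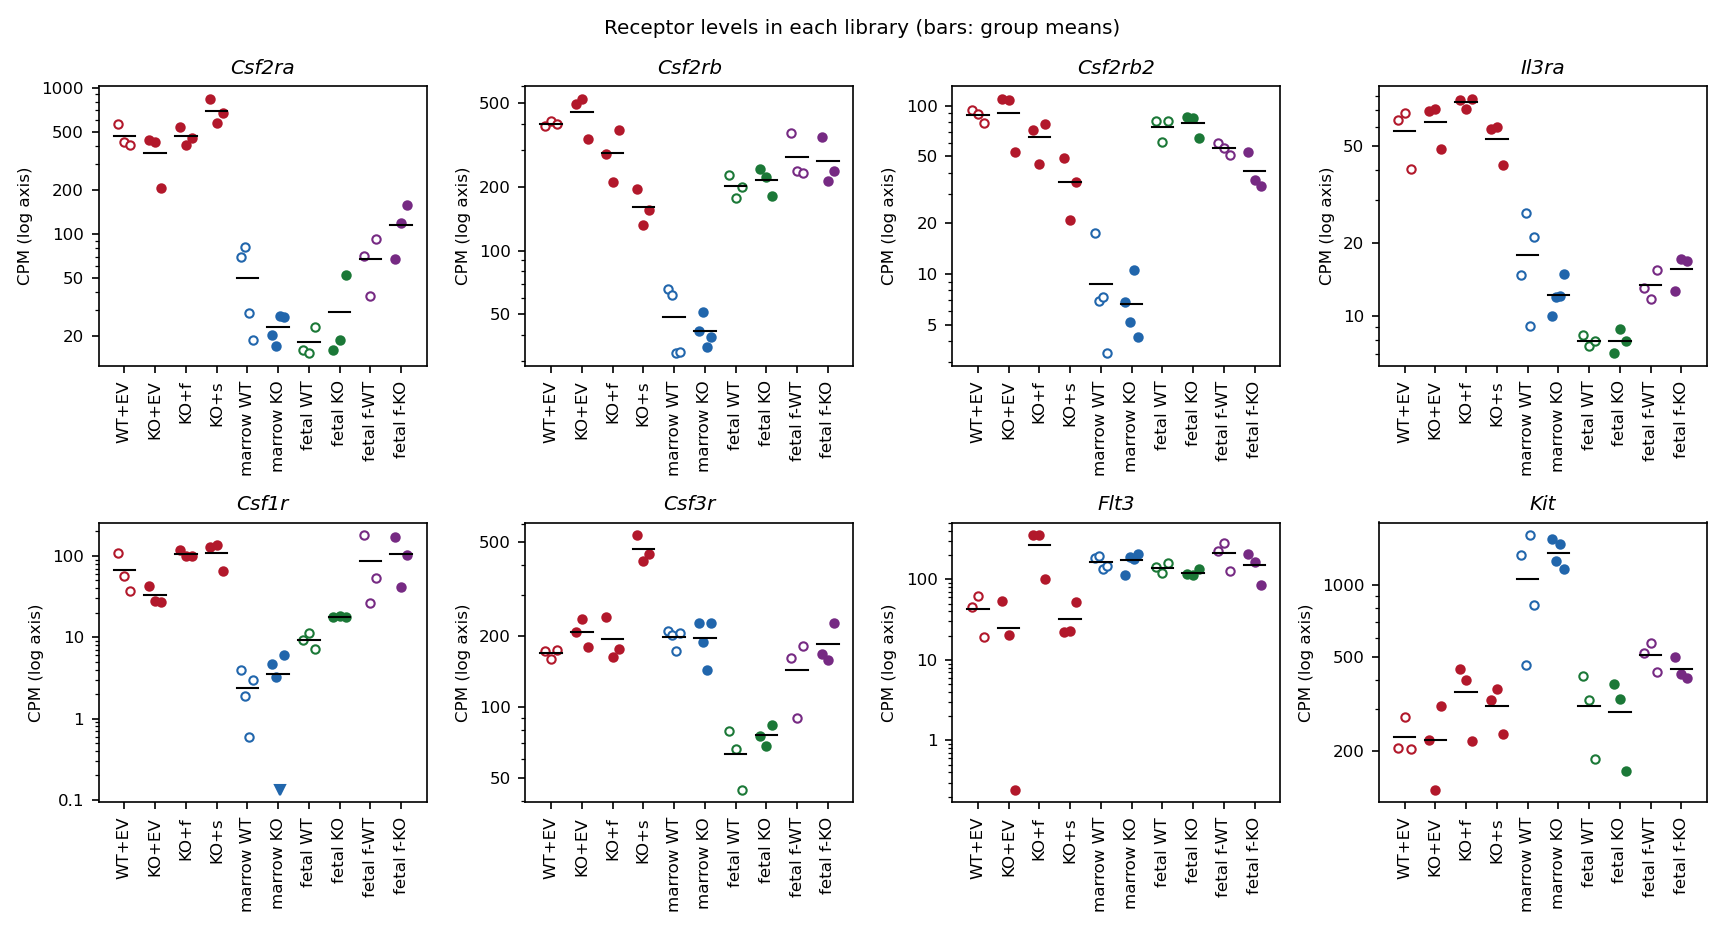
CPM on a log axis of each receptor in each of 32 libraries (points, wild-type groups open) with the group mean as a bar, for 4 leukaemia groups (red), bone marrow (blue), total-knockout fetal liver (green) and f-PRDM16-knockout fetal liver (purple). The triangle is a library with 0 counts of Csf1r, drawn at the level of 3 counts. Csf2ra and Il3ra sit higher in every leukaemia library than in any HSC library, and levels across the 4 separate tables carry no test.

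Across the 4 tables the levels fell into different orders for different receptors. Csf2ra ran from 206 to 839.9 CPM in the 12 leukaemia libraries and from 15.3 to 159 CPM in the 20 HSC libraries. Il3ra ran from 40.2 to 78.2 CPM in leukaemia and from 7.05 to 26.5 CPM in HSCs. For these 2 alpha chains no leukaemia library overlapped an HSC library. Csf1r ran from 0 counts in 1 bone marrow library (which allows up to 0.133 CPM) to 179.7 CPM in 1 wild-type library of the f-PRDM16 set. Its bone marrow libraries lay at or below 6.06 CPM, below every fetal liver library. The shared beta chain Csf2rb was 32.8 to 66.3 CPM in bone marrow and 179 to 359.6 CPM in fetal liver, with no overlap. Bone marrow, fetal liver and leukaemia libraries come from separate tables, and HSC RNA alone was amplified first, so table or preparation and tissue cannot be told apart in these level comparisons.

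The 6 leukaemia comparisons were fitted together with edgeR's quasi-likelihood test, with Benjamini-Hochberg adjustment over 12958 genes and a threshold of 0.05. KO+EV against WT+EV called 0 of 8 receptors, where 2.1% of all genes tested were called. KO+f against KO+EV called 1 of 8 (11.3% of all genes), and KO+s against KO+EV called 5 of 8 (32.4% of all genes). KO+s against KO+f called 1 of 8 (3.81%). Against WT+EV, KO+f called 0 of 8 (9.97%) and KO+s called 3 of 8 (23.7%). Of the 5 called in KO+s against KO+EV, 3 were higher (15.9% of all genes were) and 2 lower (16.6%). The CPM of both groups did not overlap for 1 receptor in KO+EV against WT+EV (23.2% of all genes), 3 in KO+f against KO+EV (34.0%), 5 in KO+s against KO+EV (51.1%), 5 in KO+s against KO+f (33.6%), 4 in KO+f against WT+EV (31.5%) and 4 in KO+s against WT+EV (45.5%). The comparisons against KO+EV share those 3 control libraries, and those against WT+EV share theirs. The median log2 change of the 8 receptors was 0.53 for KO+s against KO+EV, beside -0.01 over all genes tested.

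**Figure D2:**
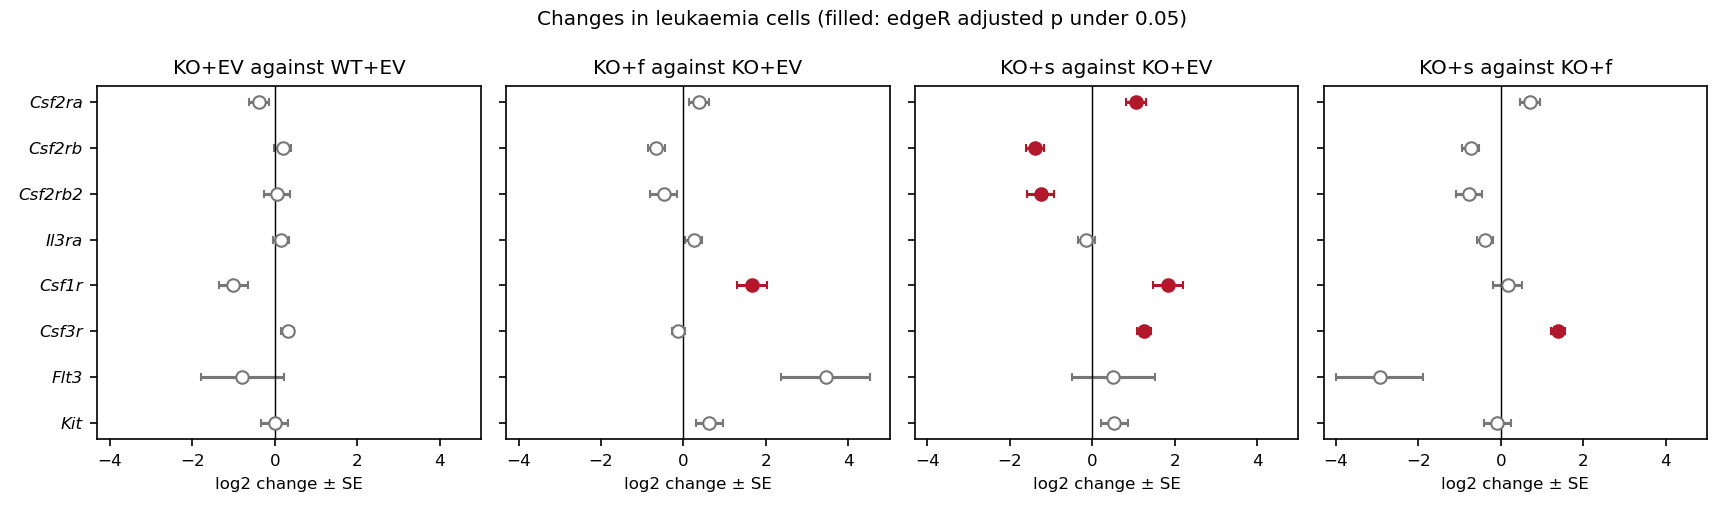
Log2 change of each receptor with its standard error in 4 leukaemia comparisons, filled red where edgeR's adjusted p was under 0.05. KO+s against KO+EV has 5 filled points, 3 to the right of 0 (Csf1r, Csf3r and Csf2ra) and 2 to the left (Csf2rb and Csf2rb2).

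Within the GM-CSF and IL-3 receptor group the alpha chain for GM-CSF and the beta chains moved in opposite directions in cells with s-PRDM16. Csf2ra was at 839.9, 574 and 672 CPM in the KO+s libraries and at 438, 426 and 206 CPM in KO+EV. Every KO+s library was above every KO+EV library, and the lowest of all was KO+EV replicate 3. Csf2ra rose 2.10-fold (log2 change 1.07 ± 0.24, edgeR adjusted p = 0.00664). Without KO+EV replicate 3 the log2 change was 0.82, with an adjusted p of 0.0103 by edgeR. In WT+EV Csf2ra was at 566, 427 and 405 CPM, below all KO+s libraries, and the log2 change of KO+s against WT+EV was 0.69 ± 0.24 without passing (edgeR adjusted p = 0.0567, DESeq2 adjusted p = 0.0264). KO+f libraries held 539, 406 and 449 CPM of it, in the range of WT+EV.

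Csf2rb went the other way. It was at 196, 133 and 157 CPM in KO+s, at 498, 525 and 337 CPM in KO+EV, at 388, 413 and 399 CPM in WT+EV and at 288, 212 and 374 CPM in KO+f. The 3 KO+s libraries were the lowest of the 12 leukaemia libraries. Against KO+EV the beta chain fell 2.61-fold (log2 change -1.39 ± 0.21, edgeR adjusted p = 0.000949), and against WT+EV it fell 2.28-fold (-1.19 ± 0.21, edgeR adjusted p = 0.00269). KO+f libraries lay above KO+s and overlapped KO+EV, and neither difference passed: the log2 change of KO+f was -0.66 ± 0.21 against KO+EV (edgeR adjusted p = 0.0650) and that of KO+s against KO+f was -0.73 ± 0.21 (edgeR adjusted p = 0.0708). Both sit close to the threshold. Without KO+EV replicate 3 the KO+f difference had an adjusted p of 0.0483 by edgeR, and without KO+f replicate 3 one of 0.0253. Without KO+f replicate 2 the difference between KO+s and KO+f had an edgeR adjusted p of 0.0398.

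Csf2rb2, the IL-3-only copy, was at 49, 21 and 35.4 CPM in KO+s and at 110.0, 108 and 52.9 CPM in KO+EV. The groups did not overlap, although KO+s replicate 1 and KO+EV replicate 3 lay close together. Csf2rb2 fell 2.38-fold against KO+EV (log2 change -1.25 ± 0.32, edgeR adjusted p = 0.0127). Its call against WT+EV (94.9, 89.1 and 78.8 CPM) was less firm: the log2 change was -1.20 ± 0.32 with an edgeR adjusted p of 0.0205. That adjusted p was 0.0649 without WT+EV replicate 1, 0.0513 without WT+EV replicate 2, 0.0639 without KO+s replicate 2 and 0.0562 without KO+s replicate 3. In KO+f it was at 72.1, 45.3 and 77.5 CPM, a log2 change of -0.48 ± 0.32 from KO+EV that did not pass (edgeR adjusted p = 0.338).

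The 2 beta-chain genes are near copies, so part of this parallel is uncertain. Of all 50-base windows in their GENCODE transcripts, 892 were identical between them, 18.4% of the windows of Csf2rb and 19% of those of Csf2rb2. The sources used here do not say how reads from such stretches were counted. Csf2rb2 made up 17.3% ± 3.34 of the summed CPM of both genes in KO+s (SD, 3 libraries), against 16.2% ± 2.38 in KO+EV, 18.0% ± 1.59 in WT+EV and 18.3% ± 1.55 in KO+f. The leukaemia groups overlapped in this share. In fetal liver of the total-knockout set it was higher, at 26.8% ± 1.85 in wild type and 26.6% ± 0.896 in knockout, and the f-PRDM16 set had 17.1% ± 2.44 and 13.3% ± 1.09.

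Il3ra, the IL-3-binding chain, did not follow either partner. It was at 58.8, 60.1 and 41.9 CPM in KO+s, 69.6, 70.6 and 48.7 CPM in KO+EV, 77.5, 71.2 and 78.2 CPM in KO+f and 64.2, 68.2 and 40.2 CPM in WT+EV. All 3 KO+f libraries were above the other 9. No comparison of Il3ra passed, and the log2 change of KO+s against KO+f was -0.38 ± 0.20 (edgeR adjusted p = 0.279).

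The balance of GM-CSF receptor chains can be read in each library as the ratio of Csf2ra to Csf2rb, both per kilobase. The ratio was 11.36, 11.42 and 11.36 in KO+s. It was 2.33, 2.15 and 1.62 in KO+EV, 3.86, 2.74 and 2.69 in WT+EV and 4.96, 5.06 and 3.18 in KO+f. The KO+s libraries lay above all others, and those of KO+EV below all others. Within KO+s the ratio barely moved although Csf2ra itself ranged from 574 to 839.9 CPM. The ratio was chosen after the levels were seen and is given as a description. In HSCs it was 0.882 to 3.49 in bone marrow and 0.175 to 1.76 in fetal liver.

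**Figure D3:**
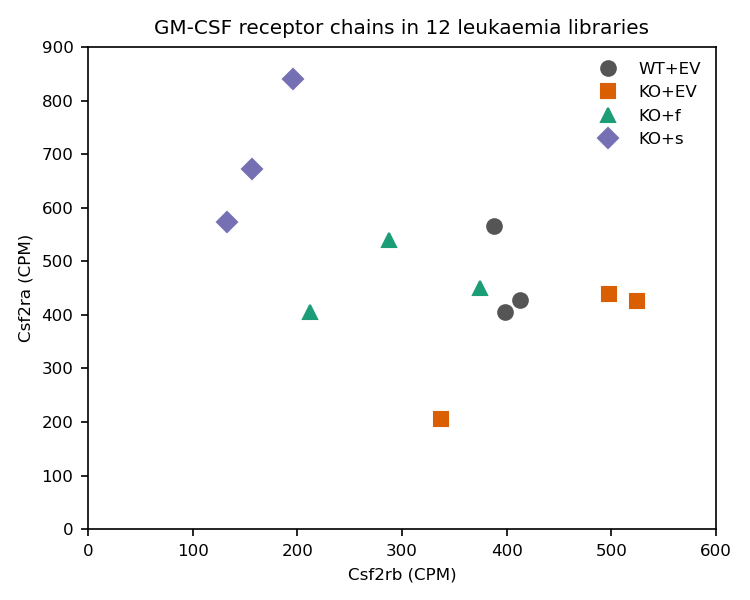
Csf2ra against Csf2rb in CPM for the 12 leukaemia libraries, 1 point each, by group. The KO+s libraries lie at 133 to 196 CPM of Csf2rb and 574 to 839.9 CPM of Csf2ra, apart from the other 9, and KO+EV replicate 3 lies lowest on the Csf2ra axis at 206 CPM.

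The G-CSF receptor separated the 2 add-back groups from each other. Csf3r was at 537, 418 and 446 CPM in KO+s, at 241, 164 and 176 CPM in KO+f, at 208, 237 and 180.0 CPM in KO+EV and at 172, 160.4 and 175 CPM in WT+EV. No library outside KO+s exceeded 241 CPM. Csf3r rose 2.39-fold against KO+EV (log2 change 1.26 ± 0.16, edgeR adjusted p = 0.000374). It was 2.61-fold higher in KO+s than in KO+f (1.38 ± 0.16, edgeR adjusted p = 0.00489), the single receptor called between the add-backs. Against WT+EV it was 2.98-fold higher (1.58 ± 0.16, edgeR adjusted p = 0.000155). These 3 calls held in each of the 6 fits that left out 1 library and in the 5 other settings tried.

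Csf1r, the M-CSF receptor, was higher with either form of PRDM16 than in KO+EV. It was at 129, 135 and 65.7 CPM in KO+s, 43.1, 28 and 27.4 CPM in KO+EV, 118, 99.2 and 99.6 CPM in KO+f and 108, 56 and 37.2 CPM in WT+EV. All 6 add-back libraries were above the 3 KO+EV libraries, while WT+EV spanned both ranges. Csf1r rose 3.56-fold in KO+s (log2 change 1.83 ± 0.37, edgeR adjusted p = 0.00378), a call that held in all 6 fits that left out 1 library and the 5 other settings.

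The call for KO+f was less firm. Csf1r rose 3.17-fold against KO+EV (log2 change 1.66 ± 0.36, edgeR adjusted p = 0.0174). By edgeR the adjusted p was 0.0667 without KO+EV replicate 2, 0.0512 without KO+EV replicate 3 and 0.0535 without KO+f replicate 1. The 2 add-backs were not called different from each other (edgeR adjusted p = 0.814), and the largest Csf1r difference not called was that of KO+EV from WT+EV, a log2 change of -1.0 ± 0.36 (edgeR adjusted p = 0.169). Its WT+EV and KO+EV libraries overlapped. KO+s against WT+EV gave 0.83 ± 0.36 (edgeR adjusted p = 0.112), and 1.34 with an edgeR adjusted p of 0.0189 without WT+EV replicate 1, the highest of its group.

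Flt3 had the widest standard errors of the 8 receptors in leukaemia, and none of its differences passed. It was at 352, 353 and 101 CPM in KO+f, 45.4, 62.2 and 19.3 CPM in WT+EV, 22, 23 and 52 CPM in KO+s and 53.9, 20.6 and 0.245 CPM in KO+EV. Every KO+f library was above all 9 others, and KO+EV replicate 3, with 5 counts, was far below them. The log2 change of KO+f against KO+EV was 3.45 ± 1.08 (edgeR adjusted p = 0.0632). Without KO+EV replicate 3 it was 2.87 and passed, with an edgeR adjusted p of 0.0457. Without KO+EV replicate 1 it was 4.70, with an edgeR adjusted p of 0.0422. Against WT+EV the log2 change of KO+f was 2.67 ± 1.04 (edgeR adjusted p = 0.127), and KO+s against KO+f gave -2.94 ± 1.05 (edgeR adjusted p = 0.131). Fits of the 2 compared groups alone called both, with edgeR adjusted p of 0.0343 and 0.0257.

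Kit was not called in any leukaemia comparison. It was at 445, 400.4 and 222 CPM in KO+f, 206, 279 and 205 CPM in WT+EV, 329, 364 and 236 CPM in KO+s and 222, 138 and 309 CPM in KO+EV. All 4 groups overlapped. The log2 change against KO+EV was 0.62 ± 0.33 in KO+f (edgeR adjusted p = 0.236) and 0.54 ± 0.33 in KO+s (edgeR adjusted p = 0.237). Flt3 per kilobase was 0.651 to 1.26 times Kit in KO+f and at most 0.346 times Kit in the other 9 leukaemia libraries.

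Markers of maturing myeloid cells differed between the same groups. The summed level of 10 neutrophil markers was 5998 to 14826 CPM in KO+s, 1029 to 1592 CPM in KO+f, 891 to 1052 CPM in KO+EV and 3011 to 10748 CPM in WT+EV. KO+s stood above KO+EV and KO+f in this sum and overlapped WT+EV. The sum of 12 monocyte and macrophage markers was 599 to 689 CPM in KO+s, 239.9 to 493 CPM in KO+f, 149 to 362 CPM in KO+EV and 309 to 491 CPM in WT+EV. The part of these markers in the receptor differences was not tested. In bulk RNA, more cells of a type and more RNA per cell cannot be told apart.

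Genes around the receptors were read from 4 lists. Of 10 growth factor ligands only Csf1 and Flt3l passed the filter on low counts in leukaemia. Csf1, a ligand of Csf1r, was at 9.16 ± 1.39 CPM in KO+s and 3.21 ± 2.16 CPM in KO+EV (SD, 3 libraries each) and rose (log2 change 1.63 ± 0.49, edgeR adjusted p = 0.0258). It was at 7.01 ± 1.63 CPM in KO+f without passing. Il3 and Thpo had 0 counts in all 12 leukaemia libraries, which allows up to 0.183 CPM in the shallowest of them.

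Of 40 other cytokine and growth factor receptors tested, 11 rose and 7 fell in KO+s against KO+EV, where 15.9% of all genes rose and 16.6% fell. Il1r2, the IL-1 decoy receptor, rose from 1.72 ± 0.596 to 18.3 ± 7.90 CPM (log2 change 3.48 ± 0.46, edgeR adjusted p = 0.000465). Il10ra, the IL-10 receptor alpha chain, rose by a log2 change of 2.40 ± 0.42 (edgeR adjusted p = 0.00176). Il17ra, an IL-17 receptor chain, fell from 139.5 ± 29.3 to 24.6 ± 12.9 CPM (-2.41 ± 0.40, edgeR adjusted p = 0.00158), and Il11ra1, an IL-11 receptor chain, fell by 1.02 on the log2 scale (edgeR adjusted p = 0.00108). In KO+f against KO+EV 7 rose and 2 fell (11.3% of all genes were called in either direction), and in KO+EV against WT+EV 2 rose and 0 fell (2.1%). Between KO+s and KO+f 0 rose and 1 fell (3.81%), Il17ra (-2.21 ± 0.40, edgeR adjusted p = 0.0178).

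Of 45 genes of receptor-proximal signalling, all tested, 20 rose and 1 fell in KO+s against KO+EV, beside 15.9% and 16.6% of all genes. Jak2, the kinase bound to the beta chain and to the G-CSF receptor, rose from 54.8 ± 21.9 to 137 ± 5.57 CPM (log2 change 1.43 ± 0.22, edgeR adjusted p = 0.00103). Dok2, an adaptor, rose by a log2 change of 1.96 ± 0.28 (edgeR adjusted p = 0.000633) and Plcg2, a phospholipase, by 0.97 ± 0.15 (edgeR adjusted p = 0.00109). In KO+f against KO+EV Jak2 (log2 change 1.13 ± 0.22) and Stat5b (0.48 ± 0.14) rose and Sh2b2 fell (-0.83 ± 0.21). Between KO+s and KO+f 3 rose and 0 fell (3.81% of all genes were called). The median log2 change of the list in KO+s against KO+EV was 0.42, beside -0.01 over all genes.

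Of 34 tested genes that encode known transcriptional regulators of these receptors, 11 rose and 0 fell in KO+s against KO+EV (15.9% and 16.6% of all genes). Ets2 rose from 40.0 ± 2.95 to 134 ± 40.9 CPM (log2 change 1.84 ± 0.32, edgeR adjusted p = 0.00193). Lmo2 (1.47 ± 0.29), Runx2 (1.34 ± 0.30) and Klf4 (3.25 ± 0.72), a monocyte-lineage factor, rose too, with edgeR adjusted p of 0.00320, 0.00591 and 0.00668. In KO+f against KO+EV 4 rose and 2 fell (11.3% of all genes were called). Gata2, a stem and mast cell factor, rose from 2.88 ± 3.06 to 43.6 ± 7.99 CPM there (3.93 ± 0.77, edgeR adjusted p = 0.0116), while Cebpa and Gfi1, factors of the granulocyte lineage, fell (-0.77 ± 0.20 and -0.63 ± 0.16, edgeR adjusted p = 0.0329 and 0.0309). Gata2 was also among the 11 that rose in KO+s, to 22.8 ± 6.81 CPM (3.11 ± 0.75, edgeR adjusted p = 0.00973). Egr1 was the single gene of the list called in KO+EV against WT+EV, where 2.1% of all genes were called. It fell (-3.34 ± 0.65, edgeR adjusted p = 0.0343). Cebpd was the single one called between KO+s and KO+f, where 3.81% of all genes were called. It was higher in KO+s (0.96 ± 0.22, edgeR adjusted p = 0.0352).

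The gene whose level over the 12 leukaemia libraries was most like each receptor was found by Pearson's r of log2 CPM, a description over libraries that share their groups. It was Fgr for Csf2ra (r = 0.961), Tmem184c for Csf2rb (0.975), Hpse2 for Csf2rb2 (0.976) and Lrrc8c for Il3ra (0.933). It was Il10ra for Csf1r (0.961), Mocos for Csf3r (0.980), Slc27a1 for Flt3 (0.969) and Rimbp3 for Kit (0.925). Among the receptors themselves the closest pair was Csf2rb and Csf2rb2 (r = 0.944), and 1 receptor appeared among the 3 nearest genes of another, Csf2rb for Csf2rb2.

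In adult bone marrow HSCs 0 of 8 receptors and 0.0% of 13495 genes were called by edgeR, although 1141 genes had an unadjusted p under 0.05 and DESeq2 called 64 genes, none of them a receptor. No receptor's CPM separated the groups without overlap, where 5.82% of all genes did. Csf2ra showed the largest difference. It was at 20.4, 17.1, 27.4 and 27.2 CPM in libraries labelled KO and at 70.1, 81.1, 29 and 18.9 CPM in wild type. The groups overlapped, since 1 wild-type library lay among those labelled KO, and the log2 change was -1.11 ± 0.39 (edgeR adjusted p = 0.534). Il3ra was at 9.98 to 14.9 CPM and 9.11 to 26.5 CPM, a log2 change of -0.55 ± 0.32 (edgeR adjusted p = 0.636). Csf3r (144 to 227 CPM and 173 to 211 CPM) and Flt3 (114 to 209 CPM and 135 to 197 CPM) had closely matched levels, and their log2 changes were smaller than their standard errors. Kit spread from 459 to 1615 CPM within wild type alone.

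In fetal liver HSCs of the total knockout the unblocked edgeR fit called 0 of 8 receptors and 0.0% of 15590 genes, with 739 genes at an unadjusted p under 0.05, and DESeq2 called 76 genes including Csf1r. Csf1r was at 17.6, 18.3 and 17.6 CPM in knockout and at 9.25, 11.2 and 7.07 CPM in wild type. The groups did not overlap, as in 11.0% of all genes tested, and the knockout libraries lay within 1 CPM of each other. No other receptor's groups stood apart. The unblocked log2 change was 0.99 ± 0.20 (edgeR adjusted p = 0.882), while DESeq2 gave an adjusted p of 0.00448. Same-numbered libraries deviated together in this table, so a fit with the replicate number as a block was set beside it. The labels name no pairing, and number 2 correlated less with its own number (0.202) than with a different one (0.338). With the block Csf1r rose 2.03-fold (log2 change 1.02 ± 0.17, edgeR adjusted p = 0.0424), 1 of 8 receptors where 1.13% of all genes were called. The blocked call was kept without pair 3 (edgeR adjusted p = 0.0317) and lost without pair 1 or pair 2.

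The other 7 receptors were not called in the total knockout under either fit. Csf2ra was at 16.2, 18.7 and 52.6 CPM in knockout and 16.2, 15.3 and 23 CPM in wild type, so its difference rested on knockout replicate 3. The log2 change was 0.74 ± 0.48 with all libraries and -0.04 without that library. Flt3 was lower in knockout within all 3 pairs (118, 113 and 133 CPM against 141, 121 and 158 CPM), a blocked log2 change of -0.16 ± 0.06 that did not pass (edgeR adjusted p = 0.284). A shared direction in all 3 pairs was seen in 37.4% of the genes tested. Csf2rb, Csf2rb2 and Il3ra overlapped between the groups, at 179 to 245, 61.1 to 85.9 and 7.05 to 8.83 CPM.

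**Figure D4:**
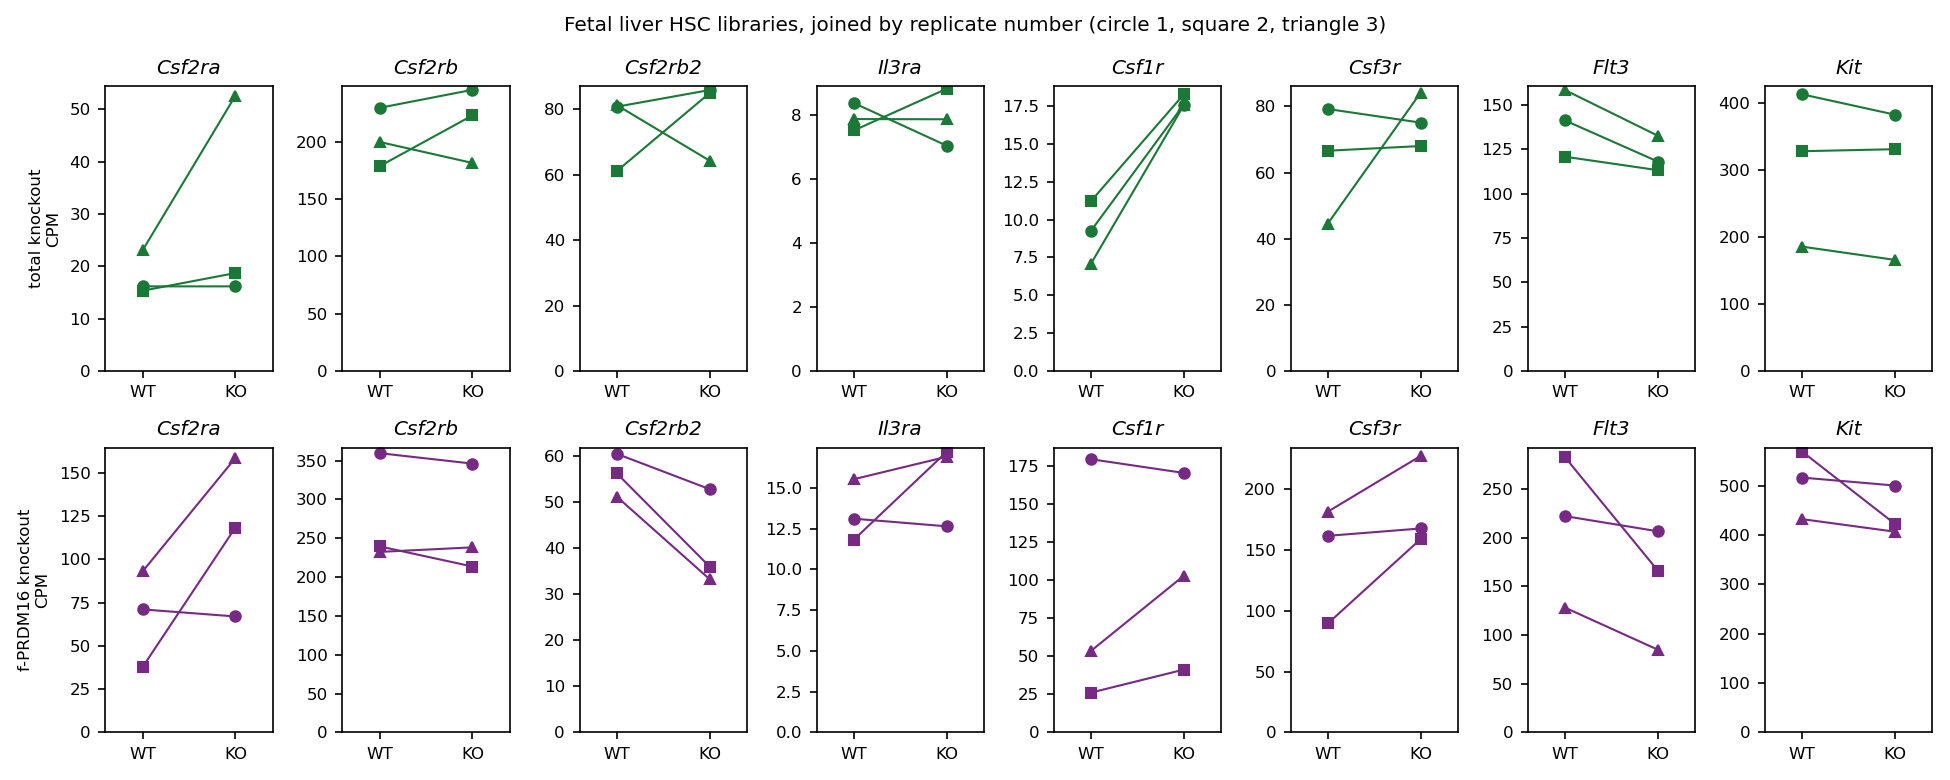
CPM on linear axes from 0 for each receptor in fetal liver HSCs, wild type on the left of each panel and knockout on the right, with same-numbered libraries joined (3 pairs per panel, total knockout above, f-PRDM16 knockout below). In the total knockout the 3 Csf1r lines rise from 7.07 to 11.2 CPM up to 17.6 to 18.3 CPM, and in the f-PRDM16 knockout the 3 Csf1r pairs lie apart from each other, at 179.7 and 171, 26.1 and 41.3, and 53.5 and 103 CPM.

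Marker sums differed in the same libraries. The 11 HSC markers summed to 1199 to 1412 CPM in the total knockout and 1481 to 1866 CPM in wild type. For 10 genes of the MLL-AF9 programme the sums were 617 to 751 CPM and 796 to 850.4 CPM. Both sums were lower in knockout without overlap, but Meis1 is in both lists, so they are not independent. Myeloid marker sums overlapped. Summed neutrophil markers were 483 to 6198 CPM in the total knockout and 77.9 to 693 CPM in wild type, and summed granulocyte-monocyte progenitor markers 869.6 to 7883 CPM and 612 to 1587 CPM. Replicate 3 was highest in each group for both, and it was the replicate in which Csf2ra was highest. The 12 monocyte and macrophage markers summed to 245 to 342 CPM in knockout and 227 to 296 CPM in wild type, with overlap. The part of these markers in the Csf1r difference was not tested. Of 35 regulator genes tested with the block 1 was called, where 1.13% of all genes were. It was Cebpe, a factor of late granulocyte maturation (log2 change 3.08 ± 0.19, edgeR adjusted p = 0.000342). Its level was 24.15 ± 33.3 CPM in knockout and 3.34 ± 4.93 CPM in wild type, so each SD exceeded its mean.

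In fetal liver HSCs of the f-PRDM16 knockout 0 of 8 receptors were called with or without the block, where the background was 0.0% of 13631 genes in both fits, 357 genes had an unadjusted p under 0.05 and DESeq2 called 1 gene. Csf1r was at 171, 41.3 and 103 CPM in knockout and at 179.7, 26.1 and 53.5 CPM in wild type. The groups overlapped, and both libraries numbered 1 were the highest of their group. The blocked log2 change was 0.60 ± 0.22 (edgeR adjusted p = 0.376). Csf2rb2 was lower in knockout in all 3 pairs (52.8, 36 and 33.2 CPM against 60.4, 56.2 and 51.2 CPM), a blocked log2 change of -0.40 ± 0.12 (edgeR adjusted p = 0.321). Csf3r was higher in all 3 pairs, at 168, 159 and 227 CPM against 161, 89.5 and 181 CPM, a blocked log2 change of 0.49 ± 0.16 (edgeR adjusted p = 0.327). Flt3 was lower in all 3, at 206, 166 and 84.9 CPM against 222, 283 and 128 CPM, a blocked log2 change of -0.40 ± 0.13 (edgeR adjusted p = 0.323). Of the genes tested here, 39.8% moved 1 way in all 3 pairs. No receptor's groups stood apart without overlap, where those of 7.31% of all genes did.

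Csf2ra was at 67, 118 and 159 CPM in the f-PRDM16 knockout and at 71.1, 37.7 and 93 CPM in wild type, with a log2 change of 0.85 ± 0.42 that did not pass (edgeR adjusted p = 0.999). Neutrophil markers summed to 1097 to 15826 CPM in these knockout libraries and to 1035 to 7805 CPM in wild type. Granulocyte-monocyte progenitor markers summed to 7762 to 32622 CPM and 3028 to 14497 CPM, and HSC markers to 807 to 1274 CPM and 967 to 2436 CPM. The groups overlapped in all 3 sums. Their part in the receptor levels was not tested. A test of the difference between the f-PRDM16 and total knockout effects called 0 of 8 receptors and 0 of 15777 genes with edgeR, and one of bone marrow against total-knockout fetal liver called 0 of 8 receptors and 1 of 15949 genes (0.00627%).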

How the data were processed

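RNA was measured in 32 libraries of 10 groups. The authors deposited raw counts per gene in 4 tables, with columns matched to groups per the labels (0 columns unmatched). Per the labels' protocols, all libraries were TruSeq from poly-A RNA, and those of HSCs were first amplified with a SMARTer kit for low input. The submitters' processing notes name bcl2fastq 2.17, TopHat, DESeq and build mm9. The counting tool, annotation and strand setting are not given in the sources used here, so overlapping and near-identical genes are uncertain. Spike-in rows were dropped (92 in bone marrow with 0 counts, 92 in the f-PRDM16-knockout table with 1 count). Calendar dates had replaced 26 names in the total-knockout fetal data.

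CPM is a count over the library's summed gene counts. Low genes were removed with filterByExpr and TMM factors computed in edgeR 4.0.16 (R 4.3.3). Its quasi-likelihood test (robust, two-sided) was used at a Benjamini-Hochberg adjusted p of 0.05, with the 12 leukaemia libraries in 1 fit and each HSC table in its own, after the script was tested on simulated data. Standard errors follow ± for log2 changes and SDs for CPM. Alternatives were RLE factors, no filter, DESeq2 1.42.0, the compared groups alone, a replicate block and leaving out each library. Figures used matplotlib 3.10.9.

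The 8 receptors and the gene and marker lists were chosen with earlier results of these data known. Named genes are the receptors, the nearest genes by r (prior count 2, up to 3 each) and up to 4 called genes per list and comparison. Replicate numbers come from the labels, which name no pairing. Deviations from group means correlated at 0.415, 0.202 and 0.626 between same-numbered libraries of the total knockout and at 0.624, 0.351 and 0.519 for the f-PRDM16 knockout. All exceed 0.1, so these were treated as pairs. In leukaemia and bone marrow they did not all exceed it. In the total knockout, differently numbered libraries correlated at up to 0.338, above the 0.202 of number 2 and near the 0.415 of number 1. Numbers 1 and 2 are therefore not clearly resolved as pairs there, and the blocked fit rests on this pairing. No libraries of the same group were duplicates (lowest chi-square per degree of freedom 11.6). Libraries of different groups were not compared in this way.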

Additional observations from a re-analysis of the deposited data

How the results depend on the processing

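Of 10 receptor calls in leukaemia, 8 held under every alternative run and 0 reversed. The exceptions, Csf1r in KO+f against KO+EV and Csf2rb2 in KO+s against WT+EV, were lost in some fits that left out 1 library. DESeq2 called 3 receptors for KO+f against KO+EV (Csf1r, Csf2rb and Flt3; 1 with edgeR, 0 to 2 with 1 library left out) and 2 for KO+s against KO+f, as did the compared groups alone (1 with edgeR, 1 to 2 left out). For KO+f against WT+EV the compared groups alone called 1 receptor. With the replicate block KO+s against WT+EV called 5 receptors, adding Csf1r and Csf2ra (3 unblocked, 2 to 3 with 1 library left out). The leukaemia numbers share only a number, and the block changed no other receptor call there. In the total knockout the block called 1 receptor and 176 genes, DESeq2 1 and 76. Leaving out a library unblocked, or pair 1, 2 or 3 with the block, gave 0 to 1 receptors and 0 to 320 genes (138, 51 and 320 for the pairs).

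Genes called moved more. For KO+EV against WT+EV they were 272, with 907 by DESeq2, 1 with the compared groups alone and 26 to 425 with 1 library left out. For KO+f against KO+EV they were 1461, 2267, 392 and 559 to 1533. For KO+s against KO+f they were 494, with 1406 by DESeq2 and 37 to 388 left out, and for KO+f against WT+EV 1292, 2069 and 559 to 1071. Leaving out 1 library gave 2732 to 3821 for KO+s against KO+EV (4200) and 1765 to 2467 for KO+s against WT+EV (3072). For bone marrow DESeq2 called 64 and left-out fits 0 to 3, and for the f-PRDM16 knockout 1 and 0 to 236, the last with the block and without pair 1. The interaction of both fetal knockouts gave 0 to 3 genes left out. That of bone marrow and fetal liver gave 1 gene, 0 with the block, 33 by DESeq2 and 0 to 2 left out. For each the cause was not tested.

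Of 37 uncalled receptor differences between groups of at least 1 standard error the sign turned in 3 under some alternative: Csf3r in KO+f against WT+EV (-0.006012 without KO+f replicate 1, up to 0.31 with another library left out), Csf2ra in the total knockout (-0.0385 without knockout replicate 3, up to 1.04) and Csf3r there (-0.0153 with the block and without pair 3). Of 25 under 1 standard error it turned in 20, so these have no settled direction. Among those the report discusses, Csf3r in bone marrow was 0.0150 with no filter and -0.0883 to 0.116 with 1 library left out, Flt3 there -0.0359 to 0.222 and Csf1r in the f-PRDM16 knockout without the block -0.209 to 1.53. Counts were lowest for Flt3 in KO+EV replicate 3 (5 counts) and, in bone marrow, for Csf1r (0 to 147 a library) and Csf2rb2 (88 to 444).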

Other observations

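The G-CSF receptor and the shared beta chain stood in different proportions in the 4 tables, a ratio looked at after the levels were known. Csf3r to Csf2rb, both as CPM per kilobase, was 4.48 to 8.76 in the 8 bone marrow libraries and 0.314 to 1.34 in the 12 fetal liver libraries. In leukaemia it was 3.85 to 4.42 in KO+s and 0.547 to 1.18 in the other 9 libraries. Thus KO+s lay above all other leukaemia and fetal libraries. Its highest library (4.42) came just under the lowest of bone marrow (4.48), a gap too small to set them apart. These are separate tables, so no test was made across them.

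Flt3 to Kit, on the same scale, was 0.105 to 0.612 in bone marrow, 0.298 to 1.22 in fetal liver and 0.00113 to 1.26 in leukaemia, where the lowest value was that of KO+EV replicate 3. Il3ra to Csf2ra was 0.0498 to 0.188 in leukaemia, 0.168 to 0.891 in bone marrow and 0.0851 to 0.414 in fetal liver. Leukaemia libraries held the lowest proportions of the IL-3-binding chain, with overlap into both HSC ranges.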
